A study of Mus musculus with 2 samples.

Results

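Ackr2, Ackr3 and Ackr4, the 3 atypical chemokine receptor genes examined here, are 3 of the 28692 features counted in single mesenchymal stromal cells from intestinal grafts, and they were picked by gene symbol. The symbols were chosen with their levels by cell class and library, and the genes detected with Ackr4, already known, so these values are given as a description and carry no test. Embryonic small intestine (SI) or large intestine (LI) from EYFP (C57BL/6) mice had been placed under the kidney capsule of adult WT recipients and left there for 4 weeks, and live YFP+ Itgb1+ cells without CD45, Ter119, BP3, CD31, EpCAM and L1CAM were sorted. Colonic grafts were pooled before sequencing, the YFP gate kept cells of graft origin, and the labels name no further allele or agent for either group. The labels name a 3′ and a 5′ kit without saying which was used, but the cell barcodes were of the same kind in both libraries, with 8 LI graft and 6 SI graft barcodes starting with AAACCC and 0 with AAACCT, the starts used by the 3′ v3 and the 5′ barcode lists. There was 1 library per group (LI graft and SI graft), so a difference between the groups cannot be told apart from a difference between 2 libraries, and intervals below cover counting error only.

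Atypical chemokine receptors bind chemokines without the G protein signalling of the classical receptors, recruit arrestins, and carry their ligands into the cell or across it. ACKR2 takes up inflammatory CC chemokines such as CCL2 and CCL11, ACKR3 binds CXCL12 and CXCL11 and also the peptide adrenomedullin, and ACKR4 binds CCL19, CCL21 and CCL25, the ligands of CCR7 and CCR9. By removing ligand, cells that carry these receptors shape the chemokine gradients along which leukocytes and migrating progenitors move, and ACKR4 is best known from lymphatic endothelium and from stromal cells that border lymphatic vessels.

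In the GENCODE annotation of GRCm38 (mm10), the build of the files, Ackr2 (ENSMUSG00000044534) lies on the plus strand at chr9:121898355-121911074, Ackr3 (ENSMUSG00000044337) on the plus strand at chr1:90203980-90216751 and Ackr4 (ENSMUSG00000079355) on the minus strand at chr9:104084157-104126933. All 3 are protein coding. Ackr4 lies inside the span of Acad11, an acyl-CoA dehydrogenase gene on the other strand (chr9:104063377-104127725). Acad11 had 6.19 CPM (a gene's UMIs per 1000000 UMIs summed over the cells) in LI graft fibroblasts and 8.09 CPM in SI graft fibroblasts, below Ackr4 in both, and whether the counting separated the strands was not given in the sources used here.

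After removal of barcodes with fewer than 500 genes or over 10% mitochondrial UMIs, 9873 LI graft and 7910 SI graft cells remained, with a median of 5288 and 5682 UMIs, and 26 barcodes occurred in both libraries. Each cell was classed by how many genes of fixed marker lists it held, with the 3 receptors in no list. Fibroblasts (FB), cells with at least 4 of 6 fibroblast markers and no other lineage, numbered 7539 (76.4%) and 5284 (66.8%). Markers of cells that the sort should have removed summed in them to 22.4 and 25.1 CPM for 8 immune genes, 4.16 and 1.98 CPM for 5 lymphatic endothelial genes and 0.725 and 56.0 CPM for 4 erythroid genes in the LI and SI graft.

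Ackr4 set the libraries apart. LI graft fibroblasts held 685 Ackr4 UMIs, or 14.6 CPM (95% Poisson interval 13.5 to 15.8). SI graft fibroblasts held 2735 UMIs, or 80.7 CPM (77.7 to 83.8). The level was thus 5.52-fold higher in SI graft cells, and the log2 LI over SI ratio was -2.39 (exact binomial interval -2.50 to -2.27, pseudocount of 1 CPM). Of 10416 genes with at least 5 CPM in fibroblasts of 1 library, 1.73% were at least 2-fold higher in the SI graft and 2.02% at least 2-fold higher in the LI graft, and 16 genes had a lower LI over SI ratio than Ackr4. An interval that left out 0 was found for 26.4% of the genes in the direction of the SI graft and for 28.6% in that of the LI graft. Ackr4 was the only member past 2-fold, Ackr3 stayed under it, and Ackr2 was below 5 CPM. The median ratio over these genes was 0.00 on the log2 scale.

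The same contrast held for cells rather than molecules. A UMI of Ackr4 was found in 5.90% of LI graft and 22.5% of SI graft fibroblasts. With each cell thinned to 2000 UMIs, 188 of 7035 LI graft fibroblasts (2.67%, exact binomial interval 2.31 to 3.08) and 564 of 4945 SI graft fibroblasts (11.4%, 10.5 to 12.3) were positive. Among positive cells before thinning, 71.5% of LI graft and 49.5% of SI graft fibroblasts held just 1 Ackr4 UMI, so positive cells of the SI graft also held more UMIs each. As a reference for UMIs from free RNA, clusters with pericyte markers among their leading genes held 7 Ackr4 UMIs in 680 LI graft cells (2.09 CPM, 0.842 to 4.31), and in the SI graft 3 UMIs in 592 cells (1.12 CPM, 0.231 to 3.28) and 4 UMIs in 150 cells (2.98 CPM, 0.813 to 7.64). Their median depths were 4328, 3698 and 8247 UMIs. A further SI graft cluster of 473 cells, led by Nrip2 and Rcan2, held no Ackr4 UMI (upper limit 1.61 CPM).

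Within the fibroblasts, pooled Ackr4 was higher in the CD81 and adventitial classes than in the Fgfr2 and PDGFRAhi classes. CD81-like FB (at least 4 of 6 genes that include Cd81, Grem1 and Rspo3, a class known for trophic factors of the crypt base) had 19.8 CPM (17.0 to 22.9) in LI and 108 CPM (102 to 115) in the SI graft. Adventitial-like FB (at least 3 of 6 genes that include Pi16 and Dpp4, markers of cells around larger vessels) had 11.2 CPM (8.998 to 13.9) and 93.9 CPM (84.6 to 104). In contrast, Fgfr2-like FB (which hold Adamdec1, a metalloprotease gene of the lamina propria) had 3.57 CPM (1.95 to 5.98) and 6.12 CPM (3.57 to 9.80). PDGFRAhi-like FB, the BMP-producing cells under the epithelium, had 3.09 CPM (1.48 to 5.68) and 7.30 CPM (4.17 to 11.9). The intervals of both classes overlapped that of the pericyte cluster in the LI graft and that of the smaller pericyte cluster in the SI graft. In the SI graft they lay above the larger pericyte cluster (0.231 to 3.28) and the Nrip2 cluster (upper limit 1.61). An SI graft cluster led by Reg3b and Fabp1, with Epcam among its leading genes, had 13.7 CPM (6.29 to 26.1). The reference thus differed between clusters, and these levels are not read as expression. Another SI graft cluster, of 510 cells led by Wif1 and Col7a1, of which 15.7% were PDGFRAhi-like by the gate, had 24.8 CPM (19.6 to 31.0). Its interval lay above those of both classes but overlapped that of the Reg3b cluster. At 2000 UMIs, 3.80% of the Wif1 cluster (2.30 to 5.87) were positive.

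The remaining fibroblasts, called ungrouped here, met no subset gate or met several in a mix given no class of its own. They had 17.2 CPM (15.6 to 19.1) and 86.6 CPM (81.6 to 91.8) and carried 36.3% and 34.9% of each library's Ackr4 UMIs. The intervals of CD81-like and ungrouped fibroblasts overlapped in the LI graft, and those of adventitial-like and ungrouped fibroblasts overlapped in the SI graft. The gates count detected markers and so took deeper cells, with a median of 7707 and 7379 UMIs in CD81-like, 9790 and 9587 in adventitial-like and 4716 and 4817 in ungrouped fibroblasts. At 2000 UMIs, Ackr4 was found in 2.78% (1.90 to 3.92) of CD81-like, 2.40% (1.38 to 3.86) of adventitial-like and 3.27% (2.73 to 3.87) of ungrouped fibroblasts of the LI graft. The SI graft shares were 15.7% (13.8 to 17.8), 12.7% (9.57 to 16.3) and 12.7% (11.3 to 14.1). The intervals of these 3 classes overlapped in both libraries. All 3 lay in the SI graft above those of Fgfr2-like (0.860%, 0.235 to 2.19) and PDGFRAhi-like FB (0.585%, 0.0709 to 2.10), while in the LI graft Fgfr2-like (0.994%, 0.401 to 2.04) and PDGFRAhi-like FB (1.05%, 0.388 to 2.28) overlapped the CD81-like and adventitial-like intervals and lay below the ungrouped alone.

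Cells that met both the CD81 and the Fgfr2 gate had 14.2 CPM (5.70 to 29.2) from 7 UMIs in LI, an interval that held the values of the 3 classes above, and 48.4 CPM (37.9 to 61.0) in the SI graft, below all 3. Outside the fibroblasts, pericyte-like cells by the gate had 5.02 CPM (2.87 to 8.16) and 13.3 CPM (10.5 to 16.7), with an interval above those of the pericyte clusters in the SI graft alone, and SMC-like cells 9.07 CPM (5.75 to 13.6) and 10.9 CPM (7.77 to 14.9).

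The LI over SI ratio of Ackr4 differed in size by class. It was -2.95 (-3.28 to -2.63) in adventitial-like, -2.40 (-2.62 to -2.18) in CD81-like and -2.26 (-2.43 to -2.10) in ungrouped fibroblasts. In the low classes it was nearer to 0, at -1.02 (-1.995 to -0.0095) in PDGFRAhi-like FB, whose levels are not read as expression above. That value came from 10 UMIs in 9 LI graft cells and 16 UMIs in 6 SI graft cells. After thinning, the positive shares of PDGFRAhi-like FB lay the other way. They were 1.05% (0.388 to 2.28) in LI and 0.585% (0.0709 to 2.10) in the SI graft, with overlapping intervals, so no direction is read. The intervals of the ratio held 0 in Fgfr2-like FB (-0.64, -1.53 to 0.27) and in SMC-like cells (-0.24, -0.97 to 0.47). Clusters with SMC markers among their leading genes were unlike each other. The pair that shared Cnn1, Actg2 and Myh11 had 8.93 CPM (5.597 to 13.5) in LI and 0.531 CPM (0.0135 to 2.96) in the SI graft (2.70, 1.17 to 3.35), and another SI graft cluster led by Actg2 and Cnn1 had 38.9 CPM (27.4 to 53.7). How many cells of these clusters passed the SMC gate was not counted.

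**Figure D1:**
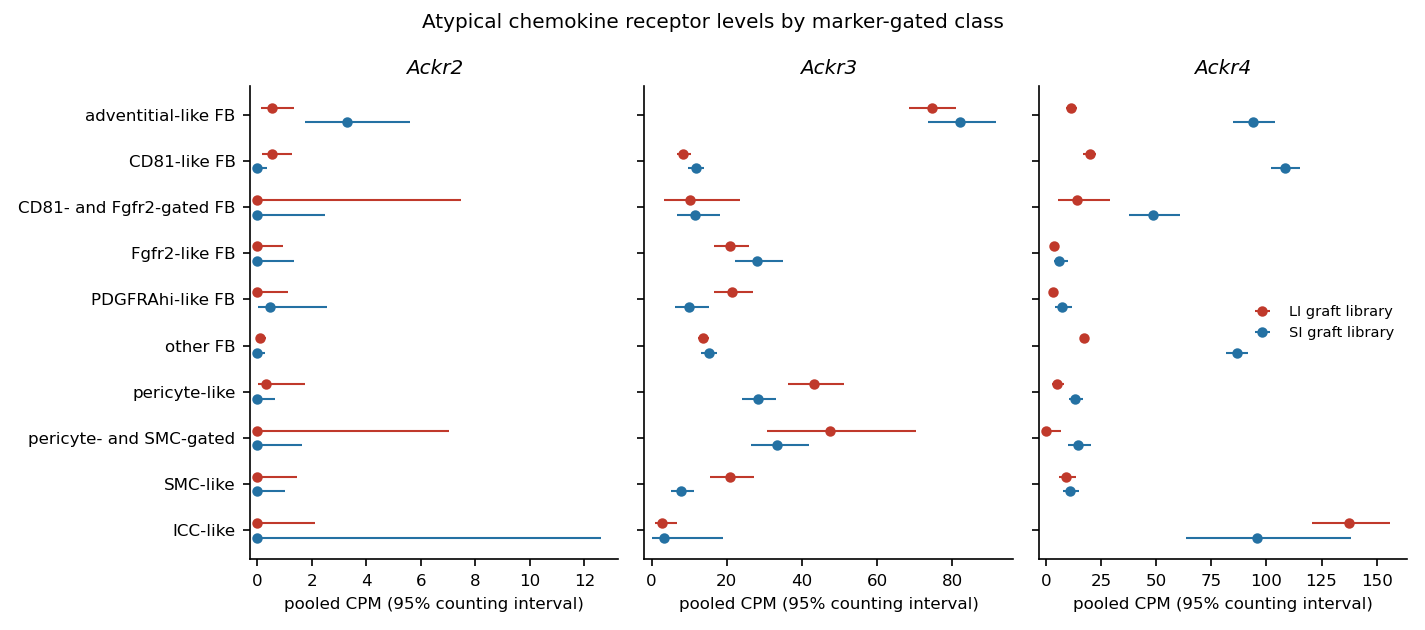
Pooled CPM (x axis) of Ackr2, Ackr3 and Ackr4 in each marker-gated class (y axis) of the LI graft library (red) and the SI graft library (blue); points are pooled values of 1 library and bars are 95% Poisson counting intervals. Ackr4 of the SI graft reached 108 CPM in CD81-like and 93.9 CPM in adventitial-like FB against 19.8 and 11.2 CPM in the LI graft, while Ackr3 was highest in adventitial-like FB of both libraries.

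Set against the remaining fibroblasts of the same library, CD81-like FB were higher for Ackr4 by a log2 ratio of 0.54 (0.30 to 0.77) in LI and 0.65 (0.54 to 0.76) in the SI graft. These small ratios depended on the gates. With 1 more marker required in every gate they were -0.18 (-0.53 to 0.16) and 0.18 (0.04 to 0.31). The 2 libraries went opposite ways for adventitial-like FB, with -0.41 (-0.72 to -0.11) in LI and 0.25 (0.09 to 0.40) in the SI graft.

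Clusters built without the 3 receptors among the variable genes showed where the highest fibroblast level of each library lay. In the SI graft it was a cluster of 745 cells led by Jam2, Fibin, Tmem229a, Chodl and Kcnn3, with 251.6 CPM of Ackr4 (236 to 268), and 34.7% of its cells (31.2 to 38.3) were positive at 2000 UMIs. The LI graft held a like cluster of 656 cells, which shared 25 of its 50 leading genes with the SI graft cluster, and each was the other's closest match among 18 LI and 20 SI clusters. Ackr4 was itself one of the shared genes (rank 24 in LI and 31 in the SI graft), and the next closest matches shared 2 and 7 genes. The LI graft cluster had 71.7 CPM of Ackr4 (62.6 to 81.7), with 11.5% of cells positive (9.12 to 14.3). A smaller LI graft cluster, given below, had a higher level. Kcnn3 encodes a calcium-activated potassium channel, Jam2 a junctional adhesion molecule and Chodl a membrane lectin.

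By the marker gates, most cells of this pair were ungrouped fibroblasts, 80.2% in LI and 57.0% in the SI graft. They nonetheless held Cd81, at 756 and 872 CPM, and little Adamdec1, at 134 and 182 CPM. Ackr3 was nearly missing from them, with 3 UMIs (0.960 CPM) in the LI graft cluster and 2 UMIs (0.548 CPM) in the SI graft cluster.

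Of 13 pairs of clusters that were each other's closest match, Ackr4 was higher in the SI graft in 8 pairs, higher in the LI graft in 2, and had an interval that held 0 in 2, while 1 pair of immune cells held no Ackr4 UMI. The pair that shared Fmo2, Lsamp and Cpz had 19.8 CPM (16.4 to 23.7) in LI and 147 CPM (139 to 155) in the SI graft, and the SI graft cluster alone carried 39.8% of that library's Ackr4 UMIs. A pair of fibroblast clusters that shared MHC class II genes and Cxcl9 had 9.77 CPM (7.64 to 12.3) and 44.0 CPM (38.0 to 50.6). In the LI graft, a small cluster of 122 cells led by Dlk1, Chil1 and Ptn, without a closest match of its own in the SI graft, had 93.9 CPM (74.1 to 117). This was the highest level of the LI graft fibroblast clusters, with an interval that overlapped that of the Kcnn3 and Jam2 cluster (62.6 to 81.7).

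**Figure D2:**
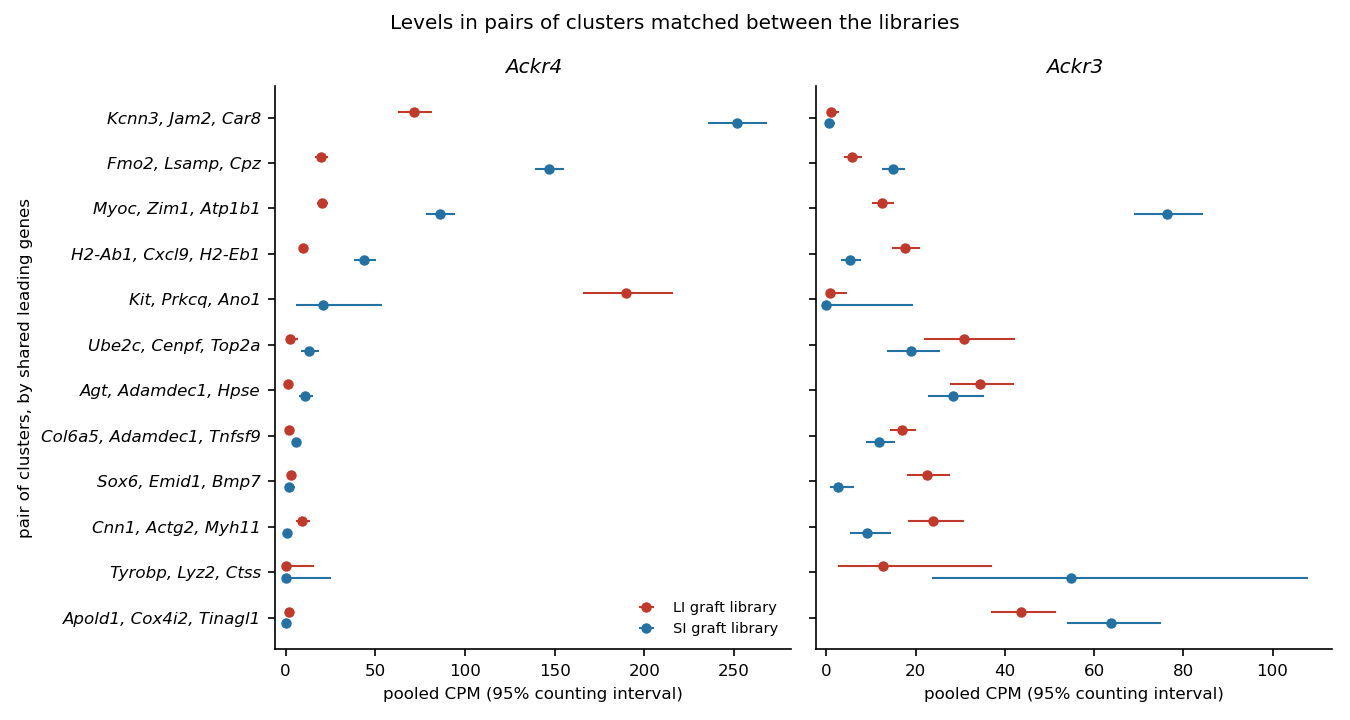
Pooled CPM (x axis) of Ackr4 and Ackr3 in 12 of the 13 pairs of clusters (y axis, 3 shared leading genes each) that were each other's closest match between the LI graft (red) and SI graft (blue) libraries, with 95% counting intervals. Ackr4 was highest among fibroblasts in the Kcnn3 and Jam2 pair, at 71.7 and 251.6 CPM, and the pair led by Kit went the other way, at 190 CPM in LI and 21.1 CPM in the SI graft.

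Across fibroblasts at 2000 UMIs, the share with Ackr4 became lower with each step of Adamdec1 in both libraries. In the SI graft 19.3% (17.8 to 20.9) of 2619 fibroblasts without Adamdec1 were positive, against 7.41% at 1 to 2 UMIs, 1.74% at 3 to 9 UMIs and 0.284% (3 of 1058) at 10 UMIs or more. In the LI graft these shares were 4.33% (3.68 to 5.06), 3.07%, 1.15% and 0.470% (10 of 2128). At 10 or more Adamdec1 UMIs the intervals of the libraries overlapped (0.226 to 0.863% and 0.0585 to 0.826%).

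By the number of CD81 list markers left after thinning, the share was lowest in fibroblasts with none. It was 2.86% (1.82 to 4.26) with none of them among SI graft fibroblasts, 16.2% (14.1 to 18.6) with 3 and 13.8% (11.0 to 16.9) with 4 or more. In the LI graft the values were 0.961% (0.571 to 1.51), 3.50% (2.41 to 4.91) and 1.30% (0.356 to 3.30), of which the last interval held the first value. Pi16, the leading adventitial marker, had no such relation to Ackr4, with 11.2% of SI graft fibroblasts positive without Pi16 and 13.1% (9.44 to 17.5) at 2 or more UMIs.

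**Figure D3:**
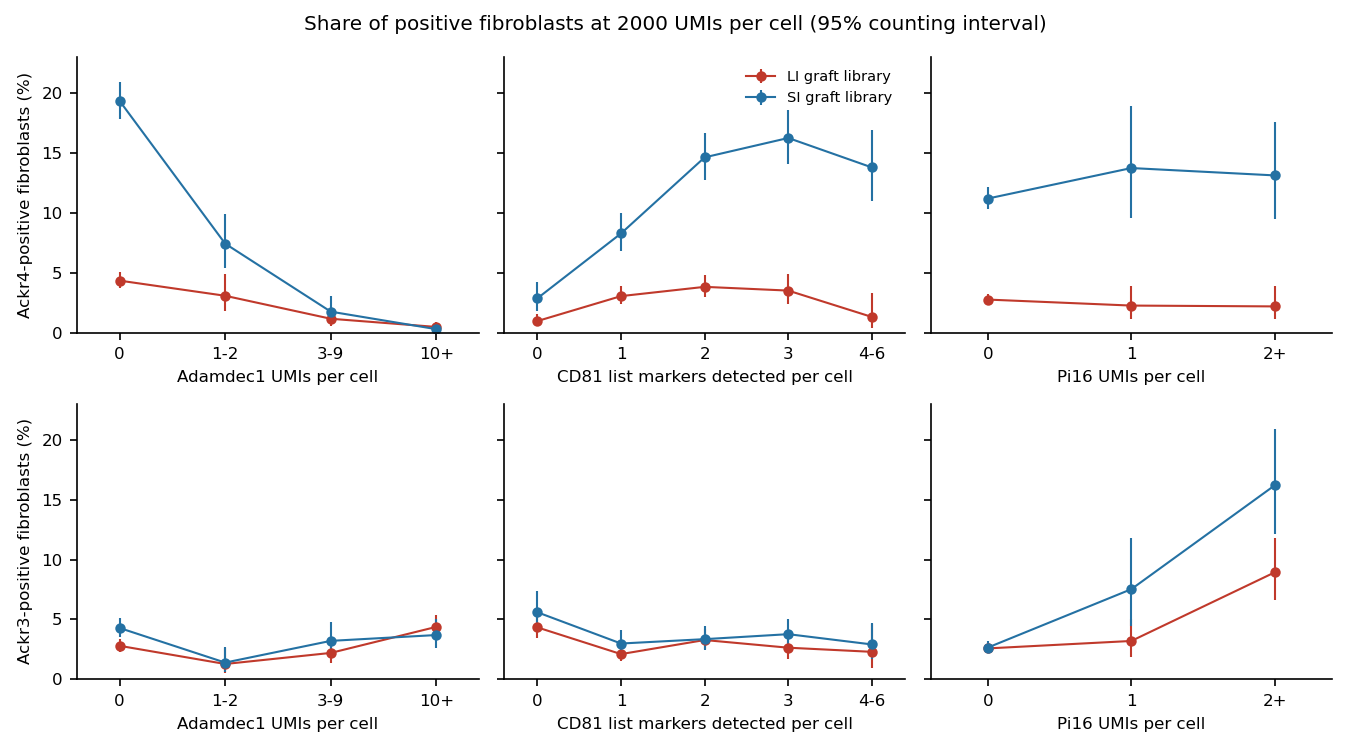
Share of fibroblasts with Ackr4 (top) or Ackr3 (bottom) at 2000 UMIs per cell (y axis, %) by Adamdec1 UMIs, number of CD81 list markers and Pi16 UMIs in the same cell (x axes), in the LI graft (red) and SI graft (blue) libraries, with 95% exact binomial intervals. Ackr4 went from 19.3% to 0.284% with Adamdec1 in the SI graft, and Ackr3 went from 2.64% to 16.2% with Pi16.

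Both libraries held cells of either sex, which gave values within a sex. Xist-positive cells in which no Y-linked gene was found were called female (83.0% of LI graft and 58.4% of SI graft fibroblasts) and the reverse male (8.40% and 23.2%). Ackr4 was at 16.2 CPM (14.9 to 17.5) in LI graft and 98.7 CPM (94.1 to 103) in SI graft female fibroblasts. In male fibroblasts it was at 8.72 CPM (6.51 to 11.4) and 63.4 CPM (58.7 to 68.5). The SI graft was thus higher within each sex, and female cells were higher within each library by CPM. At 2000 UMIs, female and male shares were 2.87% (2.46 to 3.33) and 1.47% (0.672 to 2.76) in LI, which overlapped, and 13.9% (12.7 to 15.2) and 8.82% (7.27 to 10.6) in the SI graft, which did not. Sex also marks which donors a cell can come from, so that sex and donor cannot be told apart.

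Fibroblasts with at least 3 of 4 MHC class II genes, genes that interferon gamma is known to induce, had fewer Ackr4 UMIs than the rest in both libraries, with 10.8 CPM (8.47 to 13.7) against 15.2 CPM (14.1 to 16.5) in LI and 57.6 CPM (51.5 to 64.1) against 85.5 CPM (82.1 to 89.0) in the SI graft. At 2000 UMIs, however, the intervals of the shares overlapped, with 1.87% (0.968 to 3.24) against 2.75% (2.37 to 3.18) in LI and 9.31% (7.16 to 11.8) against 11.7% (10.8 to 12.7) in the SI graft. Cycling fibroblasts held 3 Ackr4 UMIs in LI and had 30.2 CPM (19.9 to 44.0) in the SI graft, against 82.1 CPM in the rest of that library.

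Genes detected in the same fibroblasts as Ackr4 were ranked at 2000 UMIs per cell by the smaller of the libraries' log2 odds ratios of detection. Of 4744 genes detected in at least 5% of fibroblasts of both libraries, 22 (0.464%) had a log2 odds ratio of at least 1 in both. When the odds ratio was computed within fibroblast classes, 18 did, 17 of them shared. These genes lay in cells that also differ in class, and the ratios are across cells of 1 library each.

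Mgp, the matrix Gla protein that holds back calcification, ranked first and was detected in 97.9% of Ackr4-positive against 87.5% of Ackr4-negative LI graft fibroblasts and in 99.1% against 90.8% in the SI graft (log2 odds ratios 2.55 and 3.36). Jam2 followed with 23.9% against 7.30% and 28.2% against 8.95% (2.01 and 1.999). The tetraspanin gene Cd81 was in 71.8% against 41.1% and 69.5% against 34.3% (1.86 and 2.12), and it is also a marker of the CD81 list. The other ranked markers of that list were below the limit, with Grem1 at 0.52 and 0.87, Cd34 at -0.006 and 0.38, Rspo3 at 0.45 and -0.35 and C3 at -1.52 and -0.11.

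Chodl (1.67 and 2.22), Fxyd6, a regulator of the sodium pump (1.90 and 1.65), Cpe, which encodes carboxypeptidase E (1.55 and 1.52), and the homeobox gene Meis2 (1.57 and 1.51) came next. Among the 20 highest were further the heparin-binding growth factor gene Ptn (1.81 and 1.47), the hedgehog co-receptor gene Gas1 (1.33 and 1.25), Kcnn3 (1.21 and 1.53), the dynamin gene Dnm3 (1.21 and 1.47), Angptl2 (1.06 and 1.20) and Ramp1, which encodes a subunit of the CGRP receptor (1.20 and 1.05). Jam2, Chodl and Kcnn3 were also leading genes of the cluster pair with the highest Ackr4 level among fibroblasts.

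The 10 lowest genes held 1 marker each of the PDGFRAhi list (Bmp5) and the Fgfr2 list (Adamdec1), while the other ranked markers of these lists were Wnt5a (0.60 and 0.39), Pdgfra (0.06 and 0.38), F3 (-0.42 and -0.29) and Sfrp1 (-0.68 and 0.28). Bmp5, a BMP ligand gene, was in 1.06% of Ackr4-positive against 9.73% of Ackr4-negative LI graft fibroblasts and in 0.355% against 7.69% in the SI graft (-3.01 and -4.23). Agt, the angiotensin precursor gene, had -2.25 and -5.41, Adamdec1 -2.09 and -3.22, the chemokine gene Cxcl14 -1.72 and -3.23, and Wnt4 -1.47 and -2.39. Col18a1 (-1.96 and -2.13), Pdlim3 (-1.89 and -3.52), Emid1 (-1.63 and -2.99) and Col6a4 (-1.40 and -3.29) were also among the 10 lowest. Sparc ranked there too, but it was detected in 100% of positive and at least 99.9% of negative cells, so that its ratio carries no difference.

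**Figure D4:**
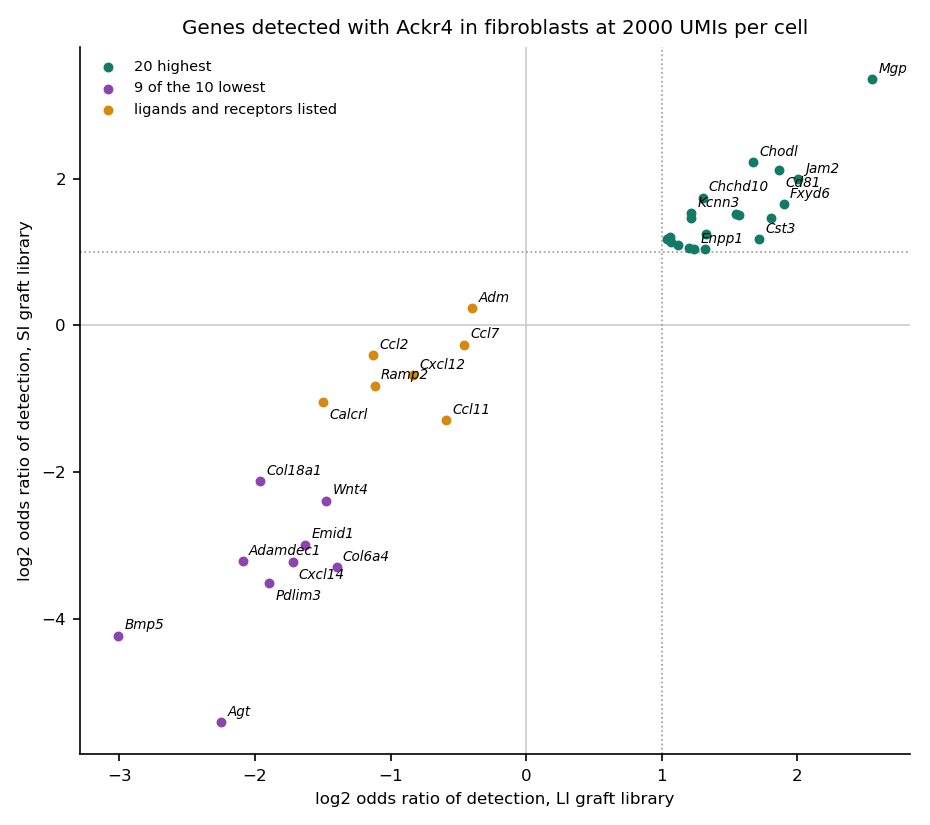
Log2 odds ratio of detection in Ackr4-positive against Ackr4-negative fibroblasts at 2000 UMIs per cell in the LI graft library (x axis) and the SI graft library (y axis). Points are the 20 highest genes (green), 9 of the 10 lowest without Sparc (purple) and the ligand and receptor genes of the lists that reached 5% detection (orange), dotted lines mark a value of 1, and Mgp stood highest at 2.55 and 3.36 while Bmp5 was at -3.01 and -4.23.

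Interstitial cells of Cajal (ICC), the pacemaker cells of the gut, had the highest Ackr4 level of the gated classes in the LI graft. ICC-like cells (at least 3 of Kit, Ano1, Gpr20, Etv1 and Prkcq) had 137 CPM of Ackr4 (120 to 156) in 354 LI graft cells, 9.40-fold the LI graft fibroblasts, and carried 22.4% of the UMIs of that library. The 56 ICC-like cells of the SI graft had 95.8 CPM (63.6 to 138), a log2 LI over SI ratio of 0.52 (-0.05 to 1.13). Of their 28 Ackr4 UMIs, 12 were in cells with 3 ICC markers and 16 in just 2 cells with 4. The 27 SI graft cells with all 5 markers held no Ackr4 UMI (upper limit 28.2 CPM), whereas the 88 LI graft cells with all 5 had 215 CPM (173 to 264).

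Among SI graft ICC-like cells, 9 without Kit held 17 of the 28 Ackr4 UMIs and had 10278 CPM of the fibroblast gene Dcn, against 659 CPM in those with Kit. Ackr4 in the ICC clusters was at 190 CPM (166 to 216) in 290 LI graft cells and 21.1 CPM (5.74 to 53.9) from 4 UMIs in 38 SI graft cells, a log2 LI over SI ratio of 3.11 (1.78 to 4.84). A second LI graft cluster with Kit among its leading genes (100 cells, led by Lcn2, Fst and Hand1, Kit 561 CPM) also had the SI graft ICC cluster as its closest match, with 14 of 50 genes shared. Its Ackr4 level was 18.4 CPM (9.20 to 33.0), inside the interval of the SI graft cluster, so the ratio holds for the first of these LI graft clusters alone. In the ICC clusters 26.6% (21.5 to 32.2) of LI cells and 0 of 34 SI graft cells were positive at 2000 UMIs.

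Ackr3 did not set the libraries apart in fibroblasts as a whole. LI graft fibroblasts held 1110 UMIs, or 23.7 CPM (22.3 to 25.1), and SI graft fibroblasts 764 UMIs, or 22.5 CPM (21.0 to 24.2), a log2 ratio of 0.07 (-0.06 to 0.20). At 2000 UMIs, 3.07% (2.68 to 3.50) and 3.66% (3.15 to 4.22) were positive. Over all alternatives tried, the ratio lay between -0.11 and 0.24, and in female cells only its interval left out 0 (0.24, 0.07 to 0.40).

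Among the fibroblast classes, adventitial-like FB held the most. They had 74.6 CPM (68.6 to 80.9) in LI and 82.1 CPM (73.4 to 91.5) in the SI graft, 5.42-fold and 5.605-fold the remaining fibroblasts, and 28.3% and 36.1% of their cells were positive before thinning. At 2000 UMIs the shares were 8.53% (6.53 to 10.9) and 13.2% (10.0 to 16.8), against 2.27% (1.83 to 2.79) and 2.94% (2.28 to 3.73) of ungrouped fibroblasts. Outside the fibroblasts, pericyte-like cells had 43.3 CPM (36.4 to 51.2) and 28.3 CPM (24.1 to 33.0), and cells over both the pericyte and the SMC gate 47.6 CPM (30.8 to 70.2) and 33.4 CPM (26.4 to 41.9). CD81-like FB were low, at 8.44 CPM (6.67 to 10.5) and 11.7 CPM (9.71 to 13.98), and ICC-like cells had 2.89 CPM from 5 UMIs and 3.42 CPM from 1 UMI, with 0 of 345 LI graft cells positive at 2000 UMIs, which allows a share of up to 0.870% by a floor of 3 cells and up to 1.06% by the exact interval.

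Class by class, Ackr3 differed between the libraries where the whole did not. The log2 LI over SI ratio was 1.31 (0.68 to 1.95) in SMC-like cells, from 20.9 and 7.84 CPM. It was 1.02 (0.35 to 1.71) in PDGFRAhi-like FB, from 21.3 and 10.0 CPM, and 0.60 (0.27 to 0.93) in pericyte-like cells. In CD81-like FB it was -0.43 (-0.81 to -0.04), and in adventitial-like, Fgfr2-like and ungrouped fibroblasts its interval held 0. Matched clusters did not all follow the gated classes. Of 13 pairs, Ackr3 was higher in the LI graft in 5, higher in the SI graft in 4, and had an interval that held 0 in 4. The pair that shared Apold1 and Cox4i2 had 43.7 CPM (36.9 to 51.4) in LI and 63.8 CPM (53.9 to 75.1) in the SI graft (-0.54, -0.87 to -0.20), against the direction of the pericyte gate, but its SI graft cluster had no pericyte marker among its 10 leading genes. The SI graft cluster led by Vtn and Higd1b, which shared 27 of 50 genes with the same LI graft cluster, had 15.7 CPM (11.3 to 21.2), in the direction of the gate. The pair that shared Myoc and Zim1, which held adventitial-like FB in both libraries, had 12.5 CPM (10.2 to 15.2) and 76.4 CPM (69.0 to 84.4), a ratio of -2.52 (-2.82 to -2.22). The pair that shared Sox6 and Bmp7 gave 22.5 CPM (18.0 to 27.7) in LI and 2.67 CPM (0.867 to 6.23) from 5 UMIs in the SI graft. The SI graft cluster led by Wif1, with Bmp7 among its leading genes, had 26.8 CPM (21.3 to 33.2). Its closest match was the same LI graft cluster, with 7 of 50 genes shared.

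Across fibroblasts, Pi16 and Ackr3 went together. Cd55, the other ranked marker of the adventitial list, had log2 odds ratios of -0.34 in LI and 0.45 in the SI graft. In the SI graft 2.64% (2.19 to 3.16) of fibroblasts without Pi16 and 16.2% (12.2 to 21.0) of those with 2 or more UMIs were positive for Ackr3 at 2000 UMIs, and in the LI graft 2.57% (2.18 to 3.0) and 8.93% (6.59 to 11.8). In the LI graft 39.7% of all Ackr3 UMIs lay in a cluster of 487 cells led by Cthrc1, Prg4 and Sfrp4, with 98.3 CPM (90.5 to 107), and in the SI graft 34.7% lay in a cluster of 726 cells led by Pi16, Igfbp6 and Sfrp4, the SI graft member of the Myoc and Zim1 pair. The median depth of that LI graft cluster was 13306 UMIs per cell against 5288 in the library. In the LI graft 37.6% of its cells, 24.6% of a cluster led by Ctla2a (17.6 CPM of Ackr3) and 19.9% of the Myoc cluster (12.5 CPM) were adventitial-like, so the level of this class in LI is a mean over unlike clusters.

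Of 4744 genes, 12 (0.253%) were co-detected with Ackr3, a log2 odds ratio of at least 1 in both libraries. Vim (2.05 and 2.14), the matrix gene Fbln2 (1.37 and 1.63), Lbp, which encodes the lipopolysaccharide binding protein (1.33 and 1.37), Uap1, an enzyme gene of the hexosamine pathway (1.41 and 1.31), and Pi16 (1.28 and 2.39) led them. Ly6c1, S100a6, Ifi204, Gfpt2 and Myc completed the 10 highest. Within fibroblast classes 4 genes passed, 3 of them shared. Pi16 was not among them, with 0.85 in LI and 1.78 in the SI graft. Grem1 was less often detected with Ackr3, at -1.59 and -1.92.

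Ackr3 in MHC class II positive fibroblasts was 19.1 CPM (15.9 to 22.7) against 24.4 CPM in the rest of the LI graft and 11.1 CPM (8.52 to 14.1) against 24.9 CPM (23.1 to 26.8) in the rest of the SI graft. Within adventitial-like FB it was 33.3 CPM (25.7 to 42.5) against 88.7 CPM (81.1 to 96.8), and 34.2 CPM (23.3 to 48.6) against 96.2 CPM (85.5 to 108). At 2000 UMIs the shares of LI graft fibroblasts were 3.42% (2.16 to 5.13) against 3.04% (2.63 to 3.49), and within adventitial-like FB 5.07% (2.06 to 10.2) against 9.43% (7.08 to 12.2), so that the intervals overlapped. In the SI graft they did not, with 1.42% (0.651 to 2.68) against 3.99% (3.43 to 4.62) and 2.86% (0.348 to 9.94) against 15.3% (11.6 to 19.6).

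Few fibroblasts held both Ackr3 and Ackr4. At 2000 UMIs, 2 LI graft fibroblasts held both, where the product of the separate shares gives 5.77, and in the SI graft 13 held both where the product gives 20.6. The adventitial-like FB of the SI graft, in which each gene alone was high, held 9 of these 13 cells, with a product of 6.71. In CD81-like FB of the SI graft 1 cell held both against a product of 4.55.

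Ackr2 was close to the limit of detection. Fibroblasts held 11 UMIs in the LI graft (0.235 CPM, 0.117 to 0.420) and 14 UMIs in the SI graft (0.413 CPM, 0.226 to 0.693), below the 5 CPM needed for the comparison over all genes, and the log2 ratio of -0.19 (-0.46 to 0.10) held 0. In the SI graft 13 of the 14 UMIs were in adventitial-like FB (3.27 CPM, 1.74 to 5.597), in 5 cells, and none of 1332 CD81-like FB held any. In the LI graft 4 UMIs were in adventitial-like and 5 in CD81-like FB. Over all classes, 11 of the 12 LI graft cells with Ackr2 also held Pi16, as did 5 of 6 in the SI graft. Of these Ackr2-positive cells, 9 and 6 were fibroblasts, while 23.0% and 15.2% of all fibroblasts held Pi16. These counts were not thinned, and 7 of the 14 Ackr2 UMIs of the LI graft lay in a cluster with a median of 11250 UMIs per cell. After thinning, 0 and 1 fibroblasts were positive, so that no genes could be ranked with it.

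The chemokines that ACKR4 binds were unevenly represented. Ccl19 was at 1.05 CPM in LI graft and 18.3 CPM in SI graft fibroblasts, a log2 ratio of -3.24 (-3.47 to -2.997), with its highest value among the gated classes in pericyte-like cells, at 12.2 and 76.3 CPM. In the SI graft fibroblast cluster with MHC class II genes and Cxcl9 among its leading genes it reached 148 CPM. Ccl21a was at 0.427 and 4.52 CPM, again highest of these classes in pericyte-like cells (4.71 and 14.2 CPM). Both symbols are carried by 2 features, of which the second held no UMI in fibroblasts, so reads of the near-identical copies of these genes are uncertain. Ccl25 differed little, with 9.22 and 8.82 CPM (log2 ratio 0.06, -0.14 to 0.25). The receptors that signal from these ligands were at trace level in fibroblasts, with Ccr7 at 0.0640 and 0.118 CPM and Ccr9 at 0.0640 and 0 CPM.

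Cxcl12, the main ACKR3 ligand, was at 645 CPM in LI graft and 795 CPM in SI graft fibroblasts (-0.30, -0.32 to -0.28). In adventitial-like FB, where Ackr3 was highest, Cxcl12 was lower than in the other fibroblast classes, at 203 and 288 CPM, while Fgfr2-like FB had 1306 and 895 CPM. Adm, which encodes adrenomedullin, ran the other way, at 93.3 and 50.6 CPM in adventitial-like FB against 36.9 and 33.6 CPM in all fibroblasts. Cxcr4, the signalling receptor of Cxcl12, was at 0.256 and 0.266 CPM in fibroblasts and 5.65 and 5.16 CPM in pericyte-like cells, whereas the adrenomedullin receptor gene Calcrl was at 94.6 and 62.3 CPM and its partner Ramp2 at 115 and 210 CPM. Cxcl11 was not analysed here.

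Of 10 ACKR2 ligand genes, 6 reached 5 CPM in fibroblasts, with 3 higher in LI and 3 in the SI graft by intervals that left out 0, and 2 of the former at least 2-fold, beside the 28.6%, 26.4% and 2.02% of all genes past the same limits. Ccl7 was at 415 and 104 CPM (1.98, 1.93 to 2.03), Ccl8 at 63.6 and 25.3 CPM (1.30, 1.19 to 1.41) and Ccl2 at 485 and 263 CPM (0.88, 0.84 to 0.91). Ccl11 (-0.17, -0.21 to -0.13), Ccl4 (-0.25, -0.49 to -0.02) and Ccl5 (-0.22, -0.38 to -0.06) were slightly higher in the SI graft. Ccl2 and Ccl7 were highest in adventitial-like FB of the LI graft, at 1289 and 1136 CPM.

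Of 12 signalling receptors listed, 9 stayed below 5 CPM in both libraries, the highest of them at 0.295 CPM. Ramp3, a further partner of Calcrl, was at 12.2 and 1.62 CPM in fibroblasts (2.33, 2.06 to 2.59). Among other atypical receptor genes, Ccrl2, which presents chemerin, was at 26.5 and 56.4 CPM (-1.06, -1.17 to -0.96), Ackr1 at 2.86 and 4.52 CPM and highest in adventitial-like FB (9.03 and 22.9 CPM), and Gpr182 at or near 0. All 6 arrestin and receptor kinase genes reached 5 CPM, and their ratios were small (median -0.18), with 3 higher in the SI graft, a direction that 26.4% of all genes took, and 3 with an interval that held 0. Arrb1 was at 19.8 and 26.0 CPM and Arrb2 at 4.72 and 5.73 CPM.

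**Figure D5:**
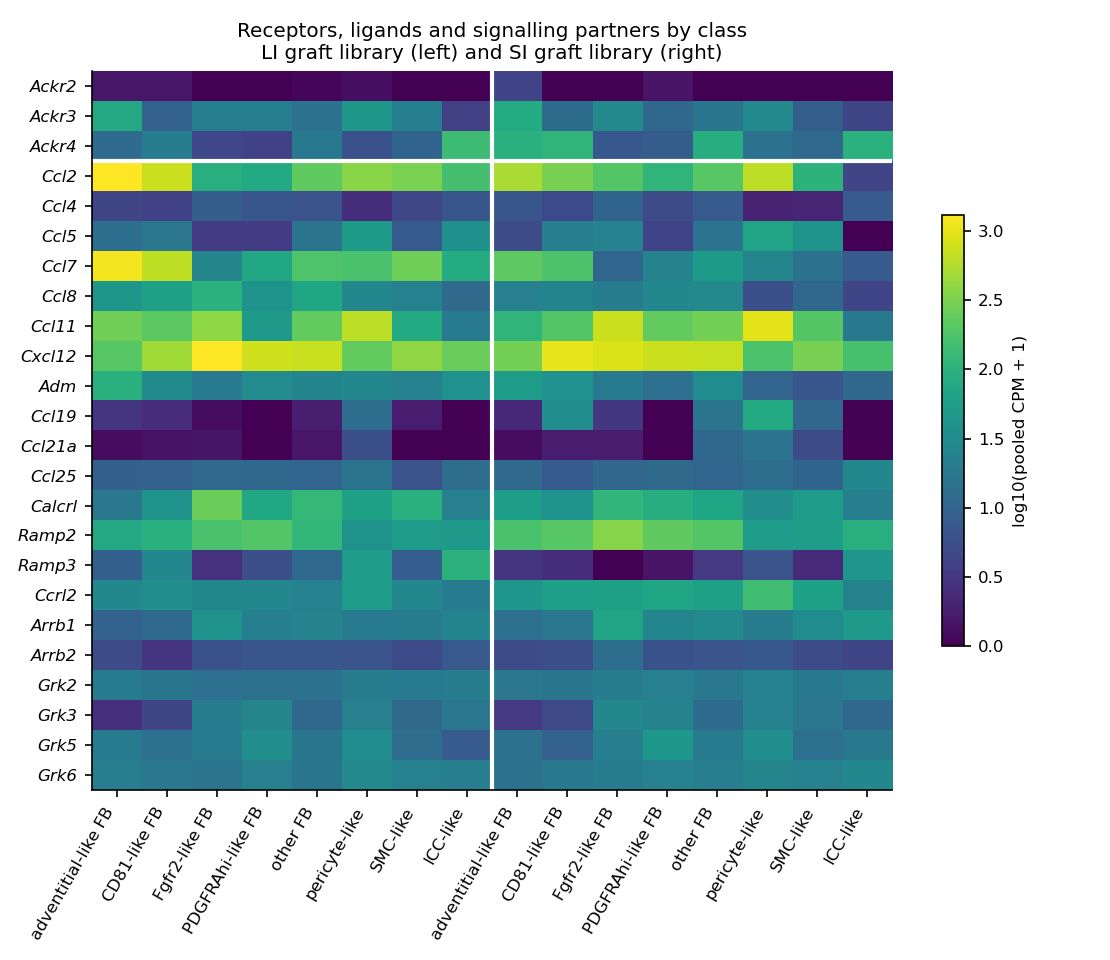
Colour shows log10 of pooled CPM plus 1 for the 3 receptors (top rows) and for listed ligand, receptor, arrestin and kinase genes (rows) in 8 marker-gated classes (columns) of the LI graft (left) and SI graft (right) libraries. Cxcl12 was high in every fibroblast class but lowest of them in adventitial-like FB (203 and 288 CPM), where Ackr3 peaked, and Ccl19 was highest of the 8 classes in pericyte-like cells (12.2 and 76.3 CPM).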

How the data were processed

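Single cells from 2 libraries had been sequenced on the 10x Genomics system with a 3′ or 5′ kit (not given per library in the sources used here, though the barcode starts were alike in both). The authors aligned reads to mm10 with Cell Ranger (3.1.0) and deposited UMI counts per gene and barcode, whole numbers without normalization. The submitters' processing notes also name Seurat (3). The deposited files hold 11568 LI graft and 9631 SI graft barcodes with 63348069 and 54918006 UMIs.

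Barcodes with under 500 genes or over 10% mitochondrial UMIs were removed, and doublets were kept. A cell entered a class when it held at least 3 (adventitial, Fgfr2, ICC, immune, endothelial, epithelial, mesothelial) or 4 (fibroblast, PDGFRAhi, CD81, pericyte, SMC) genes of that marker list. A cell over the adventitial and CD81 gates was called adventitial-like. Fibroblasts over the CD81 and Fgfr2 gates formed a class of their own. Fibroblasts over any other mix of subset gates, or over none, were left ungrouped. The gates were set after the marker distributions had been seen, and many cells lie at them: 738 of 1119 CD81-like FB of the LI graft and 832 of 1332 of the SI graft held just 4 markers, and 446 of 674 and 249 of 404 adventitial-like FB just 3. Genes and lists were chosen with earlier results of these data known.

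CPM is the sum of a gene's UMIs over the summed UMIs of the cells, with exact Poisson intervals. Ratios are log2 of (CPM + 1), with an exact binomial split. Shares were compared with each cell thinned to 2000 UMIs and have exact (Clopper-Pearson) intervals. Odds ratios had 0.5 added to each count. All intervals are at 95% and cover counting error only. With 1 library per group no test was made. Listed genes were named at 5 CPM or more in fibroblasts of 1 library (Ackr1, Ccl21a, Ccr7, Ccr9, Cxcr4 and Gpr182, below it, were named after their values were seen), the 20 highest and 10 lowest genes were ranked for Ackr4 and the 10 highest for Ackr3, and a member needed 50 positive thinned fibroblasts per library to be ranked. Mitochondrial, ribosomal protein, sex-linked and haemoglobin genes were left out of the ranking, and 1 ranked gene and 1 pair of clusters are not reported here. On simulated data with the 4744 genes of the Ackr4 ranking, 54 of 54 genes of a log2 odds ratio of 2, 51 of 52 of 1.5 and 0 of 4544 unchanged genes were called. Positive cells were drawn at random there and each gene was shuffled on its own, so the simulated data held no cell classes. The simulation therefore does not bear on genes co-detected through class. Genes simulated at the calling limit were not tallied.

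Clusters came from Leiden (leidenalg 0.10.2, resolution 0.8, 30 principal components, 20 neighbours, 2000 variable genes without the 3 receptors). Clusters of the 2 libraries were paired when each shared more of its 50 leading genes with the other than with any other cluster. The 3 receptors were not left out of these leading genes. Python 3.11.15, scipy 1.17.1 and scanpy 1.11.5 were used. Alternatives were other cell filters, doublet removal (Scrublet, 914 and 609 cells), classes from clusters, stricter gates, female cells only, mean per-cell CPM, other pseudocounts, thinning depths and detection limits, and odds ratios within classes. Leaving out MHC class II positive cells or cells under 2000 UMIs and another draw of the thinning were chosen after seeing the data.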

Additional observations from a re-analysis of the deposited data

Results flagged for a closer look

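Ackr4 in adventitial-like FB against the remaining fibroblasts of the same library was drawn out because the 2 libraries went opposite ways. The log2 ratio was -0.41 in LI and 0.25 in the SI graft, and the difference was not tested, since there was 1 library per group. The class drew on different clusters, and those with most of its cells in LI had 5.88 CPM (led by Cthrc1), 9.77 CPM (led by Ctla2a) and 20.5 CPM (led by Myoc), while the SI graft cluster matched to the last had 86.2 CPM.

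Ackr4 in ICC clusters against fibroblasts was drawn out for the same reason. The log2 ratio of LI over SI was 3.11 in the ICC clusters and -2.39 in fibroblasts, and this difference was not tested either. The SI graft value of the ICC clusters rests on 4 UMIs in 38 cells, and a second LI graft cluster with Kit had 18.4 CPM against 21.1 CPM there.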

How the results depend on the processing

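Of 59 values recomputed, 48 stayed inside the main interval or within 1.5 times the main count, 10 moved and 1 reversed. The Ackr4 ratio of LI over SI was -2.54 in female cells only and -2.13 with a pseudocount of 5 CPM, and Ackr3 was 0.24 in female cells, with an interval that left out 0 (0.07 to 0.40), and -0.11 as a mean of per-cell CPM. The Ackr4 ratio of CD81-like FB over the remaining fibroblasts reversed in the LI graft with 1 more marker in each gate (-0.18) and was 0.80 there in female cells, and in the SI graft it was 0.18 with 1 more marker and 1.24 with classes from clusters. The number of genes co-detected with Ackr4 was 11 at 1000 UMIs per cell, 41 at 4000 UMIs and 39 with genes detected in at least 2%, where fewer or more genes were ranked (2621, 7053 and 7927 against 4744). Another draw of the thinning gave 21 genes, 14 of them among the 22, so genes near the limit depend on the draw. No paired analysis was possible because each group has 1 library. Depth limits Ackr2 most, with a floor of 3 UMIs equal to 0.0640 and 0.0885 CPM in LI and SI graft fibroblasts. No library could be left out, and donor and litter cannot be told apart from the graft type.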
